A study of Caenorhabditis elegans with 6 samples.

Results

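The genes described here are the cathepsin-like cysteine proteases and the aspartyl proteases of Caenorhabditis elegans, chosen by symbol: every protein-coding gene named cpr, asp, cpl or cpz followed by a number. The rule found 28 of 19971 protein-coding genes on the 6 chromosomes, 8 cpr, 17 asp, 2 cpz and 1 cpl, and all 28 passed the minimum of 60 reads that 18650 genes passed. The files hold no expression values, so neither an intestinal origin of these genes nor the labelled cell type could be checked here.

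Cathepsin-like proteases are made as inactive precursors and become active in acid compartments, the lysosomes and, in the worm, the gut granules and the gut lumen. Cysteine proteases of this kind cut with a cysteine in the active site and are held in check by cystatins, whereas aspartyl proteases use a pair of aspartates. In C. elegans several members of both classes are known from the intestine, the organ that digests bacteria and makes yolk, and the intestine descends from the E daughter of the EMS founder cell.

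The study mapped contacts of the genome with the nuclear membrane in early embryos, for cells of the EMS lineage, by DNA adenine methyltransferase identification (DamID). Here a fusion protein brings Dam, a bacterial enzyme, to the DNA it meets, Dam methylates GATC sequences close by, and fragments between methylated sites are amplified and sequenced. Of the 6 libraries, 3 came from strain BN1470 carrying Dam::EMR-1, a fusion to the worm emerin of the inner nuclear membrane, and 3 from strain BN1465 carrying GFP::Dam, a fusion with no membrane anchor. All 6 were labelled with genotype WT and cell type EMS, and were made from embryos of 4000 bleached adults per strain, grown for 72 h at 20 °C on bacteria that lack Dam. Each group is 1 strain, and an effect of strain cannot be told apart from one of the construct. The DNA came from whole embryos, the labels do not say which cells carried Dam, and they do not say that replicates were separate cultures, so p-values measure the spread between these samples, which may be technical.

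Recovered depth ranged from 15719682 to 22407988 reads per library. Each gene was given the mean deposited log2 ratio of the GATC sites that lie within its body or up to 500 bp outside it. The ratio was read as that of Dam::EMR-1 to GFP::Dam, and because no header states the numerator, every direction, and the assignment of recovered reads to a group, rests on that reading. A library's level at a gene is given as CPM per kb, its recovered reads in that window scaled to its total reads and to the length of the window. At 11 of the 28 genes 1 or 2 sites had no unique solution and are missing from this level, with 32.2% of the window's reads at cpr-1, 27% at cpr-9, 14.1% at asp-16, 13.1% at asp-13 and under 9% elsewhere. A gene was called enriched or depleted at an adjusted p below 0.05 in limma over all 18650 genes, with Benjamini-Hochberg adjustment. All coordinates are those of ce11, in base pairs.

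Of the 28 protease genes, 13 were enriched, 6 were depleted and 9 were not called. Over all genes tested, 30.2% were enriched and 27.2% depleted, against 46.4% and 21.4% of the proteases. The median ratio of the proteases was 0.63, beside 0.31 for all genes, and their values ran from -6.09 for cpl-1 to 5.36 for asp-19. The 2 classes were spread differently over this range. Of the 11 cysteine protease genes, 3 were enriched and 4 depleted, and their median was -1.53. Of the 17 aspartyl protease genes, 10 were enriched and 2 depleted, and their median was 2.67. The difference between the classes was not tested, since members share chromosome regions and are not replicates.

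**Figure D1:**
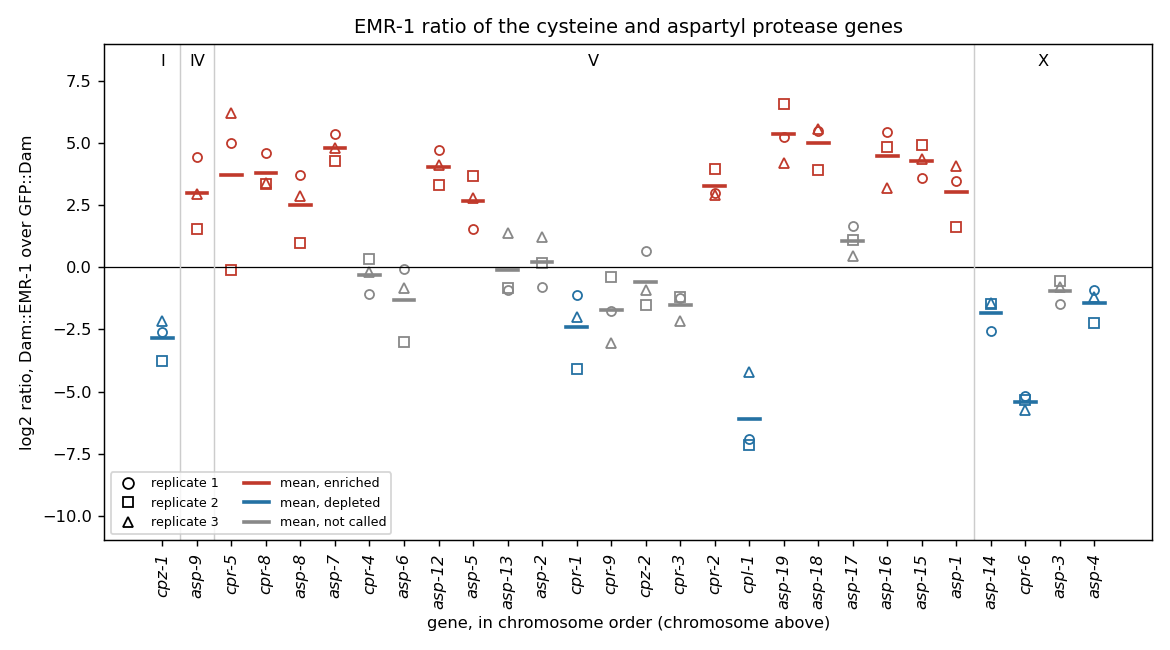
Log2 ratio of Dam::EMR-1 over GFP::Dam for the 28 protease genes, in chromosome order on the x axis. Circles, squares and triangles are replicates 1, 2 and 3 and bars their mean, coloured by call; 12 of the 13 enriched genes lie on chromosome V, and 3 of the 4 genes on X were depleted.

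The lowest ratio belonged to cpl-1, the cathepsin L gene, which is essential in the embryo and acts in the processing of yolk. It lies on chromosome V from 16592572 to 16595346. Its ratios were -6.91, -7.16 and -4.20 in replicates 1, 2 and 3, with a mean of -6.09 ± 1.64 (SD, n = 3) and a limma adjusted p of 3.25e-05. All 3 replicates were far below 0, and replicate 3 was the least negative. In CPM per kb, cpl-1 had 428, 486 and 456 in the GFP::Dam libraries and 3.20, 3.25 and 61.2 in the Dam::EMR-1 libraries. Its mean GFP::Dam level stood at percentile 99.8 of all genes with recovered reads, and the groups did not overlap. The window held 92792 reads in all, the most of any of the 28 genes.

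Next lowest was cpr-6, a cathepsin B-like gene on chromosome X from 6607207 to 6609045. Its replicate ratios of -5.20, -5.33 and -5.73 were the closest together of any of the 28 (SD 0.28, n = 3), and its limma adjusted p was 5.99e-05. The GFP::Dam libraries held 71.6, 59.5 and 54.0 CPM per kb there and the Dam::EMR-1 libraries 4.06, 2.04 and 0.93, so the groups were far apart. The calls of cpl-1 and cpr-6 held in all 11 limma alternatives and in both fits of edgeR on the summed reads.

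Another depleted gene was cpz-1, the cathepsin Z gene, which is known for its part in moulting and lies on chromosome I from 2686640 to 2689429. Its ratios were -2.59, -3.79 and -2.15, with a mean of -2.84 ± 0.85 (SD, n = 3) and a limma adjusted p of 0.00311. Every Dam::EMR-1 library, at 8.58 to 16.1 CPM per kb, was below every GFP::Dam library, at 23.4 to 47.8. The call of cpz-1 held in all 11 limma alternatives and in edgeR with no replicate block (adjusted p = 0.036). It was lost in edgeR with a replicate block (adjusted p = 0.096). The other cathepsin Z gene, cpz-2 on chromosome V, had a mean ratio of -0.58 ± 1.13 (SD, n = 3), which did not pass the test (limma adjusted p = 0.405). Its summed reads nevertheless did not overlap between the groups. They were 56.4, 14.8 and 8.69 CPM per kb with Dam::EMR-1 and 59.0, 66.1 and 91.8 with GFP::Dam. By edgeR with a replicate block the difference was -2.64 (log2), which was not called (adjusted p = 0.0687).

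Depletion of cpr-1, a gut cysteine protease gene on chromosome V from 11975551 to 11976756, was less even. Its ratios were -1.13, -4.08 and -2.02, with a mean of -2.41 ± 1.51 (SD, n = 3) and a limma adjusted p of 0.0295. Over the 4 of its 6 sites with recovered reads, the 2nd Dam::EMR-1 library held 0 reads and the others 6.51 and 4.13 CPM per kb, and the GFP::Dam libraries held 12, 4.04 and 6.38, so the groups overlapped there. The call was lost for the gene body alone, without replicate 2 and without replicate 3, with adjusted p up to 0.193 over the limma alternatives, and in both edgeR fits (up to 0.431).

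Enrichment among the cysteine proteases was found at 3 cathepsin B-like genes, cpr-2, cpr-5 and cpr-8. The ratios of cpr-8 (chromosome V, 1134602 to 1139182) were 4.60, 3.37 and 3.40, with a mean of 3.79 ± 0.70 (SD, n = 3) and a limma adjusted p of 0.000895. Those of cpr-2 (chromosome V, 16532936 to 16534100) were 3.01, 3.98 and 2.90, with a mean of 3.30 ± 0.59 (SD, n = 3) and a limma adjusted p of 0.00483. Both genes were well above 0 in every replicate, but cpr-2 was not called in either edgeR fit (adjusted p up to 0.113) and cpr-8 not in the one with a replicate block (0.0577). The gene cpr-2 lies on the same arm as cpl-1, 58.5 kb below it, with a ratio of the opposite sign.

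By contrast, the replicates of cpr-5 (chromosome V, 1132598 to 1134036) were far apart, at 5.03, -0.12 and 6.21. The mean was 3.71 ± 3.36 (SD, n = 3), with a limma adjusted p of 0.0115. The call was lost without replicate 1, without replicate 3 and for the gene body alone, with adjusted p up to 0.113 over the limma alternatives, and in both edgeR fits (up to 0.0875). The GFP::Dam library of replicate 2 held 12.9 CPM per kb at cpr-5, against 2.17 and 0.516 in the others. No cysteine protease gene besides these 7 passed the test. Among the rest, cpr-4, whose secreted product is linked to signals from irradiated to unirradiated tissue, had a ratio of -0.30 ± 0.71 (SD, n = 3). The others, cpr-3 and cpr-9, stood at -1.53 and -1.73, with limma adjusted p of 0.11 and 0.105.

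The highest ratios of the whole set were at aspartyl protease genes. The gene asp-19 (chromosome V, 18728703 to 18729374) had ratios of 5.26, 6.59 and 4.22, with a mean of 5.36 ± 1.19 (SD, n = 3) and a limma adjusted p of 0.000748. It rests on 2 GATC sites and 491 reads, all of them in the Dam::EMR-1 libraries. A count of 0 in each GFP::Dam library allows up to 0.110 CPM per kb, against 3.10 to 9.47 in the Dam::EMR-1 libraries. The deposited ratio adds 1 read to each count, so its size, and the order of the highest genes, depends on that addition. With 5 reads added, on recovered sites, the ratio was 3.44 at asp-18, 3.38 at asp-19, 3.26 at asp-16 and 3.15 at asp-7. It was 3.00 at asp-12 and 2.85 at asp-15, the reverse of their order by the deposited ratio.

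Close by, asp-18 (chromosome V, 18730174 to 18731679) had ratios of 5.51, 3.91 and 5.58, with a mean of 5.00 ± 0.95 (SD, n = 3) and a limma adjusted p of 0.000116. It rests on 13 sites. Its Dam::EMR-1 libraries held 68.9, 99.6 and 76.6 CPM per kb, percentile 98.3 of all genes for their mean, and its GFP::Dam libraries 0.0683, 1.32 and 0.137. The summed GFP::Dam reads at asp-18 were 3, 54 and 6, so the summed levels were separated without a count of 0. Of these reads, 3, 54 and 5 lay at the site 1934 bp from the lower end, beyond the upper end of the gene. At most of the other sites every GFP::Dam count was 0, so the ratio of asp-18 also depends on the added read.

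The ratios of asp-7 (chromosome V, 3028285 to 3029631) were 5.36, 4.28 and 4.80, with a mean of 4.81 ± 0.54 (SD, n = 3) and a limma adjusted p of 0.000675. It held 0, 0 and 4 recovered reads in the GFP::Dam libraries and 462, 250 and 369 in the Dam::EMR-1 libraries. At asp-16 (chromosome V, 19039030 to 19042605) the ratios were 5.44, 4.85 and 3.18, with a mean of 4.49 ± 1.17 (SD, n = 3) and a limma adjusted p of 0.00023. The neighbouring asp-15 (chromosome V, 19043215 to 19044853) had 3.60, 4.92 and 4.36, with a mean of 4.30 ± 0.66 (SD, n = 3) and a limma adjusted p of 0.000669. Its GFP::Dam libraries held 2, 8 and 0 recovered reads, so the size of its ratio also depends on the added read. The calls of asp-7, asp-15, asp-16, asp-18 and asp-19 held in all 11 limma alternatives and in both edgeR fits.

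By the deposited ratio, enrichment was smaller at 5 further aspartyl protease genes. The ratios of asp-12 (chromosome V, 8270643 to 8272056) were 4.73, 3.33 and 4.13, with a mean of 4.06 ± 0.70 (SD, n = 3) and a limma adjusted p of 0.000304. At asp-9 (chromosome IV, 6185889 to 6189324), the enriched gene that lies off chromosome V, they were 4.47, 1.53 and 2.94, with a mean of 2.98 ± 1.47 (SD, n = 3) and a limma adjusted p of 0.00484. Those of asp-1 (chromosome V, 19049562 to 19050752), an aspartyl protease gene of the intestine, were 3.48, 1.61 and 4.07, with a mean of 3.06 ± 1.28 (SD, n = 3) and a limma adjusted p of 0.00344. All of these replicate values lay above 0, and replicate 2 was the lowest at each of the 3 genes. None of the 3 was called in either edgeR fit, with adjusted p up to 0.251 at asp-12, 0.115 at asp-9 and 0.136 at asp-1. At asp-12 the difference in summed reads was smaller than the mean over sites, at 1.28 (log2, edgeR with a replicate block), with 59.2, 89.1 and 46.0 CPM per kb for Dam::EMR-1 and 23.3, 8.70 and 18.3 for GFP::Dam.

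The ratios of asp-5 (chromosome V, 8272385 to 8274044) were 1.55, 3.68 and 2.79, with a mean of 2.67 ± 1.07 (SD, n = 3) and a limma adjusted p of 0.00442. Those of asp-8 (chromosome V, 3024562 to 3027931) were 3.74, 0.99 and 2.86, with a mean of 2.53 ± 1.40 (SD, n = 3) and a limma adjusted p of 0.0249. Both calls were lost in both edgeR fits and in some limma alternatives. That of asp-5 was lost with the median over sites and in the 2-kb table (adjusted p up to 0.121 over the limma alternatives), and that of asp-8 with the median, without replicate 1 and without replicate 3 (up to 0.147).

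Only asp-14 and asp-4, both on chromosome X, were depleted among the aspartyl protease genes. The ratios of asp-14 (6444185 to 6446664) were -2.56, -1.47 and -1.44, with a mean of -1.83 ± 0.64 (SD, n = 3) and a limma adjusted p of 0.016. Its libraries were well separated, at 1.68, 5.47 and 7.58 CPM per kb with Dam::EMR-1 and 78.6, 42.7 and 83.5 with GFP::Dam. Most GFP::Dam reads of asp-14 lay at the sites 2417 and 2817 bp from the lower end of the gene, which is 2480 bp long. Its 4 depleted sites lay between 2177 and 2856 bp, and 3 of its 12 site means were above 0. Its call held in both edgeR fits but was lost in 4 limma alternatives, the gene body alone, the median, the 2-kb table and without replicate 1 (adjusted p up to 0.449).

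The cathepsin D-like genes asp-3 and asp-4, which are known to act in the necrotic death of neurons together with calpains, showed small differences. At asp-4 (chromosome X, 13218985 to 13221462) the ratios were -0.89, -2.24 and -1.18, with a mean of -1.44 ± 0.71 (SD, n = 3) and a limma adjusted p of 0.0379. Its summed reads did not separate the groups, at 49.7, 36.1 and 51.9 CPM per kb with Dam::EMR-1 and 39.5, 38.7 and 60.2 with GFP::Dam, and its call was lost in 8 of 11 limma alternatives (adjusted p up to 0.829). At asp-3 (chromosome X, 6791064 to 6792709) the ratios were -1.48, -0.55 and -0.80, with a mean of -0.94 ± 0.48 (SD, n = 3), which did not pass the test (limma adjusted p = 0.164).

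The remaining 4 aspartyl protease genes were not called. They were asp-6 at -1.31, asp-13 at -0.12, asp-2 at 0.20 and asp-17 at 1.07. At asp-2 a single site with a mean of -2.50 held 81.5% of the reads. The summed reads of asp-2 differed by -2.23 (log2, edgeR with a replicate block, adjusted p = 0.154). At asp-17 the Dam::EMR-1 libraries held 45, 605 and 6 recovered reads, so most came from replicate 2. Over all 28 genes, every Dam::EMR-1 library exceeded every GFP::Dam library at 13, which is 46.4% beside 36.5% of all genes. The reverse held at 5, which is 17.9% beside 25.3% of all genes.

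**Figure D2:**
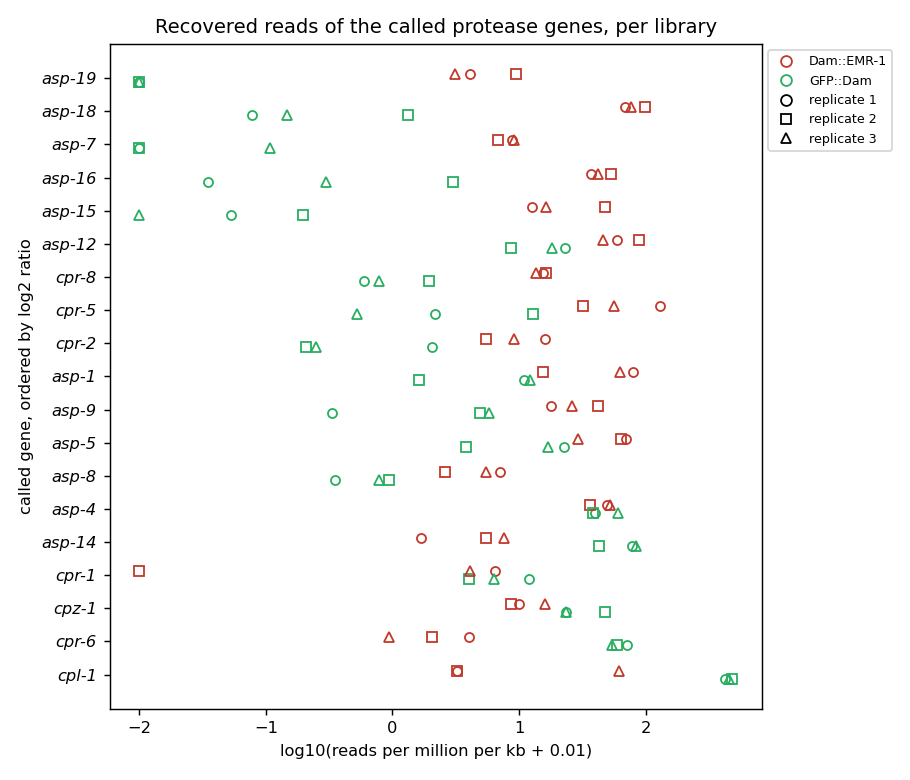
Recovered reads of the 19 called protease genes in each library, as log10 of CPM per kb plus 0.01, with Dam::EMR-1 in red, GFP::Dam in green and replicates by shape. At asp-18 the Dam::EMR-1 libraries lie between 68.9 and 99.6 and the GFP::Dam libraries at or below 1.32; at cpl-1 the GFP::Dam libraries lie between 428 and 486; at asp-4 the groups overlap.

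The protease genes are unevenly placed. Chromosome V holds 22 of the 28, or 78.6%, beside 25% of all protein-coding genes, and chromosomes II and III hold 0. Of the 22, 12 were enriched and 2 depleted, 54.5% and 9.09%, where 41.4% and 16.9% of all genes tested on V were called. With the chromosome divided into 3 parts of equal length, the left part held 5 of the genes, 4 of them enriched, where 48% of its genes were enriched. The right part held 9, of which 6 were enriched and 1, cpl-1, depleted, where 52.8% and 9.63% of its genes were called. In the middle part 2 of 8 were enriched and 1 was depleted, beside 25.9% and 25.8%. On X, 0 of 4 were enriched and 3 depleted, beside 20.8% and 25.7%.

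Each gene was then compared with its surroundings, taken as the mean over the sites in 25 kb on each side beyond the 500 bp. Across the 28 genes the ratio and this surrounding level had a Pearson correlation of 0.60, beside 0.68 across all genes, given as a description, since genes near one another share sites and all values share the same libraries. By the test of the difference in limma, 6 of the 28 were higher than their surroundings and 6 were lower, 21.4% in each direction, where 13.5% and 15.5% of all genes were called. All 6 that were higher were aspartyl protease genes. Those that were lower comprised 4 cysteine protease genes and 2 aspartyl ones.

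The largest difference downward was that of cpl-1, whose surroundings stood at 0.67. It was lower in the 3 replicates by -7.30, -7.92 and -5.07, with a mean of -6.76 ± 1.50 (SD, n = 3) and a limma adjusted p of 0.000108. The gene cpr-6 was lower than its surroundings, at -1.21, by a difference of -4.21 ± 0.20 (SD, n = 3; limma adjusted p = 0.000995). The difference was -3.63 ± 0.89 at cpz-1 and -2.24 ± 1.00 at asp-14 (SD, n = 3; limma adjusted p = 0.00299 and 0.02).

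At 2 further genes a low value lay within a stretch of positive ratios. The surroundings of cpr-3 (chromosome V, 15296834 to 15298700) stood at 2.58 and the gene itself at -1.53 ± 0.53 (SD, n = 3), a difference of -4.11 ± 0.29 (limma adjusted p = 0.00427). At asp-6 (chromosome V, 8267511 to 8268937) the surroundings stood at 1.38 and the difference was -2.69 ± 1.26 (SD, n = 3; limma adjusted p = 0.015). Neither gene was called against 0. The call of asp-6 was lost without replicate 2, with a flank of 100 kb and with the median over sites (differences of -1.96, -1.81 and -1.80, adjusted p = 0.0901, 0.0516 and 0.112), and that of asp-14 without replicate 1 and with the median (-1.67 and -0.74, adjusted p = 0.124 and 0.47).

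Upward, asp-13 (chromosome V, 8641602 to 8643193) lay in a stretch of negative ratios. Its surroundings stood at -3.52 and the gene at -0.12, a difference of 3.40 ± 0.80 (SD, n = 3; limma adjusted p = 0.0173). Reads were few there, at 2, 7 and 316 recovered in the Dam::EMR-1 libraries and 10, 20 and 16 in the GFP::Dam libraries. Most thus came from the Dam::EMR-1 library of replicate 3. At the site 930 bp from the lower end, both libraries of replicates 1 and 2 held 0 reads, and the ratios of -0.59 and -0.34 reflect no reads. The other higher genes were asp-12, asp-19, asp-18, asp-7 and asp-16, with differences of 2.85, 2.79, 2.73, 2.54 and 1.80 and limma adjusted p between 0.00574 and 0.0423, all in surroundings between 1.21 and 2.69. These upward calls depended on the replicates and on the flank. Without replicate 1, 2 or 3, between 1 and 4 of the 28 genes were called higher, and asp-12 was called in each case, as it was with flanks of 10 and 100 kb and with the median over sites. The difference of asp-13 was 0.69 with a flank of 100 kb, 1.41 with 10 kb and 2.69 with the median (adjusted p = 0.554, 0.311 and 0.0877), and it was not called in any of these. That of asp-7 was 1.51 with 100 kb (adjusted p = 0.139). Its call was also lost with 10 kb and without replicate 1, 2 or 3 (limma adjusted p between 0.0601 and 0.117). The call of asp-16 was lost without replicate 1, 2 or 3, with 10 kb and with the median (up to 0.136). That of asp-19 was lost without replicate 1, without replicate 2 and with the median (up to 0.19), and that of asp-18 without replicate 1 (0.0684). The enriched genes asp-1, asp-8 and asp-9 stood at 3.06, 2.53 and 2.98 in surroundings of 2.85, 2.50 and 2.91, and did not pass the test. For asp-9 this depended on the flank, with a difference of 2.64 against 100 kb (limma adjusted p = 0.0112), 0.07 against 25 kb and -1.10 against 10 kb.

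**Figure D3:**
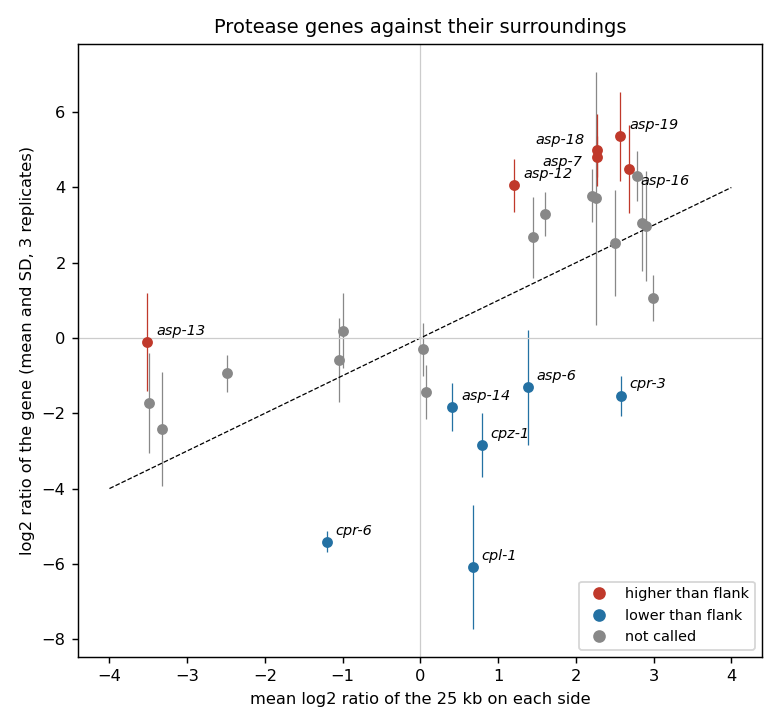
Log2 ratio of each of the 28 protease genes (y axis, mean with SD over 3 replicates) against the mean log2 ratio of the 25 kb on each side (x axis); the dashed line marks equality. The 6 genes lower than their surroundings lie below the line, cpl-1 with a difference of -6.76, and asp-13 lies above it at the left.

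Several of the genes lie side by side, and 8 pairs of neighbours have bodies within 10 kb of each other. Over 17804 such pairs of neighbouring protein-coding genes, 8.47% differed in limma with an adjusted p below 0.05. Among the protease pairs 1 of 8 did. The gene asp-12 exceeded asp-6, 1705 bp away and with 0 shared sites, by 4.79, 6.35 and 4.98 in replicates 1 to 3, with a mean of 5.37 ± 0.85 (SD, n = 3; limma adjusted p = 0.0116). The asp-6 values were all below 0 and the asp-12 values all above it.

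In the run of asp genes near the right end of V, asp-16 exceeded asp-17, 1707 bp away, by 3.42 ± 0.60 (SD, n = 3), which did not pass the test (limma adjusted p = 0.0557). The pair asp-7 and asp-8 differed by 2.28 ± 0.88 with 1 shared site (SD, n = 3; limma adjusted p = 0.146). That site lies in the body of asp-8 and stood at 6.42, with 450 reads, 41.5% of those in the asp-7 window. It was the 1 enriched site of asp-8 and the highest of asp-7. On the sites that only one window holds, asp-7 exceeded asp-8 by 2.40 ± 0.94 (SD, n = 3). The other 5 pairs differed by means between -1.39 and 0.08, with SDs between 1.53 and 3.18, and did not pass the test. Those were cpr-5 with cpr-8, which share 1 site, asp-12 with asp-5, which share 3, and asp-19 with asp-18, asp-16 with asp-15 and asp-15 with asp-1, which share 0. The lowest of these means was that of asp-5 minus asp-12, which on the sites that only one window holds was -2.08 ± 2.72 (SD, n = 3).

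Single GATC sites showed where within the genes the differences lay. The 28 windows held 245 distinct sites, of which 209 had 60 reads or more. Of these 13.9% were enriched and 12.9% depleted by limma, where 12.5% and 12.7% of all sites tested were called. At the 13 enriched genes 0 sites were depleted, and at the 6 depleted genes 0 sites were enriched. Each gene was called on the mean of these same sites, so this lends the gene calls no further weight. The called genes cpr-2, asp-9 and cpz-1 had 0 sites that passed the test singly.

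All 11 sites of cpl-1 had a mean ratio below 0, from -11.02 to -3.03, and 8 were depleted. The lowest, 2981 bp from the lower end of the gene and so beyond its upper end, held 3604, 3218 and 1465 reads in the GFP::Dam libraries and 0, 1 and 1 in the Dam::EMR-1 libraries. A pair of sites at 2595 and 2896 bp carried most reads of the window, 39660 and 33163. At these sites the Dam::EMR-1 library of replicate 3 held 1366 and 1577 reads, against 4 to 25 in the other Dam::EMR-1 libraries.

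At cpr-6 all 13 sites had a mean below 0, from -9.40 to -1.21, and 8 were depleted. The lowest lay 18 bp inside the lower end of the gene, with 1136, 992 and 770 GFP::Dam reads and 2, 0 and 1 Dam::EMR-1 reads. A site at 909 bp held 119 reads in the Dam::EMR-1 library of replicate 1 and 0 in every other Dam::EMR-1 library, so its replicates were far apart. The 12 sites of cpz-1 were all below 0 as means, from -4.69 to -0.40, yet 0 of them passed the test singly.

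At asp-18, asp-7 and asp-19, the highest by the deposited ratio, every site had a mean above 0. The means of the 13 sites of asp-18 ran from 1.71 to 7.97, and 7 were enriched. The site with most of its reads, 1934 bp from the lower end, held 1253, 2551 and 1741 Dam::EMR-1 reads and 3, 54 and 5 GFP::Dam reads. At asp-7 the 4 site means ran from 3.32 to 6.42, and 2 were enriched, and at asp-19 1 of its 2 sites was enriched, at 6.54. All 14 sites of asp-9 were above 0 as means, from 1.00 to 4.98, and 0 passed the test singly.

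**Figure D4:**
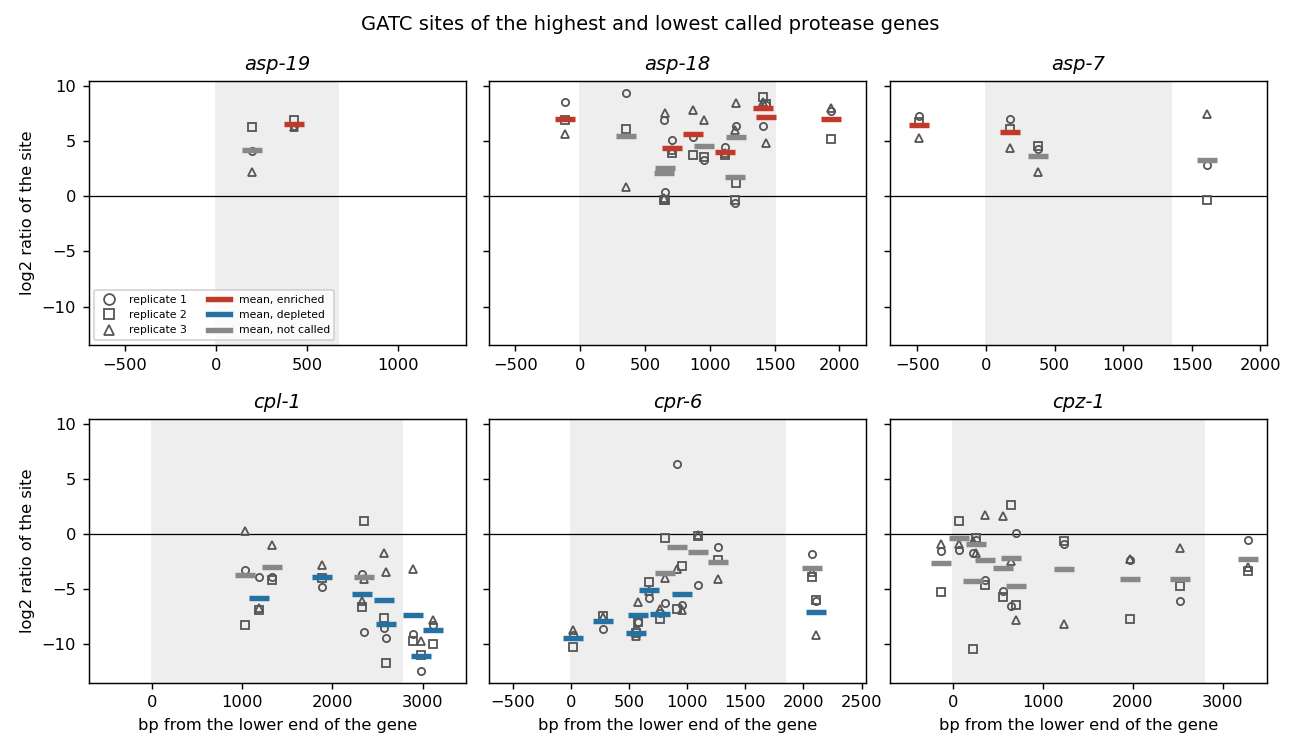
Log2 ratio of single GATC sites at the 3 highest and 3 lowest called protease genes, against the distance in bp from the lower coordinate end of the gene; symbols are replicates, bars means coloured by call, and the gene body is shaded. All 11 sites of cpl-1 and all 13 of cpr-6 have means below 0, and all 13 of asp-18 above 0.

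At a wider scale, 25 bins of 10 kb held protease genes. By limma 9 of them were enriched and 4 depleted, 36% and 16%, beside 28.4% and 25.2% of all such bins. Gene and bin did not always have the same call. The bin that holds asp-19 stood at -0.92, -1.07 and -3.45 in replicates 1 to 3 and was not called (limma adjusted p = 0.133). That of asp-2, a gene not called, was depleted at -2.32 ± 0.78 (SD, n = 3; limma adjusted p = 0.0174). Of the 28 gene windows, 13 also held part of another protein-coding gene. Among the 15 that did not, 8 were enriched and 3 depleted, where 40.5% and 17.5% of the 6484 such genes in the genome were called.

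Gene lists that act with these proteases, or cut proteins by other chemistry, were set beside them. The lists were drawn up from textbook roles, and their counts are to be read beside the 30.2% enriched and 27.2% depleted of all genes tested. The genes of lysosomal acidification and membranes, mostly V-ATPase subunits, had 1 enriched and 19 depleted of 28 tested, or 3.57% and 67.9%. Their median ratio was -3.25. Among them vha-8, a V-ATPase subunit, stood at -6.08 ± 1.00 and glo-1, a Rab of the gut granules, at -4.09 ± 0.75 (SD, n = 3; limma adjusted p = 5.97e-05 and 4.7e-05). The enriched gene of that list was cup-5, a mucolipin, at 2.18 ± 0.32 (SD, n = 3; limma adjusted p = 0.0105). Both cystatin genes, the inhibitors of the cysteine proteases, were depleted, cpi-2 at -4.80 ± 0.53 and cpi-1 at -3.36 ± 1.00 (SD, n = 3; limma adjusted p = 0.000399 and 0.00891).

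Of 32 other lysosomal hydrolase genes, 8 were enriched and 7 depleted, or 25% and 21.9%, near the 30.2% and 27.2% of all genes. The median was -0.08. The lipase gene lipl-3 stood at 6.07 ± 1.35 and pcp-4, a prolyl carboxypeptidase-like gene, at 5.20 ± 1.22 (SD, n = 3; limma adjusted p = 6.2e-05 and 5.84e-05). The depleted genes with the smallest adjusted p were crn-7, at -3.70 ± 1.70, and nuc-1, a lysosomal DNase II gene, at -2.90 ± 0.50 (SD, n = 3; limma adjusted p = 0.00113 and 0.00281). All 3 intestinal GATA factor genes, elt-2, elt-4 and elt-7, were depleted, with a median of -3.33, where 27.2% of all genes were depleted. The call of elt-7 rests on 3 sites and 217 reads. Neither elt-2 nor elt-7 was called by edgeR with a replicate block (adjusted p = 0.059 and 0.145).

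The calpains, cysteine proteases of the cytosol, had 7 enriched and 2 depleted of 10, beside 30.2% and 27.2% of all genes, with a median of 2.24. Their extremes by adjusted p were clp-10 at 6.13 ± 2.10, clp-6 at 4.43 ± 1.22, clp-1 at -4.04 ± 0.43 and clp-2 at -3.56 ± 0.54 (SD, n = 3; limma adjusted p = 0.000142, 0.000421, 7.75e-05 and 0.00246). The astacins, zinc metalloproteases, had 10 enriched and 2 depleted of 33 tested, or 30.3% and 6.06%, with a median of 1.24. Their enriched share was thus near that of all genes. Among them nas-29 stood at 4.49 ± 0.80, nas-38 at 4.23 ± 0.31, nas-12 at -4.24 ± 1.12 and nas-4 at -3.45 ± 1.33 (SD, n = 3; limma adjusted p = 0.000196, 0.000233, 0.000791 and 0.00585). By edgeR with a replicate block, cup-5, cpi-1, clp-2, nas-12 and nas-4 were not called (adjusted p = 0.131, 0.1, 0.0885, 0.0519 and 0.0642). The call of cpi-1 rests on 404 reads. Each list is described by its counts alone, and its difference from the proteases was not tested.

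**Figure D5:**
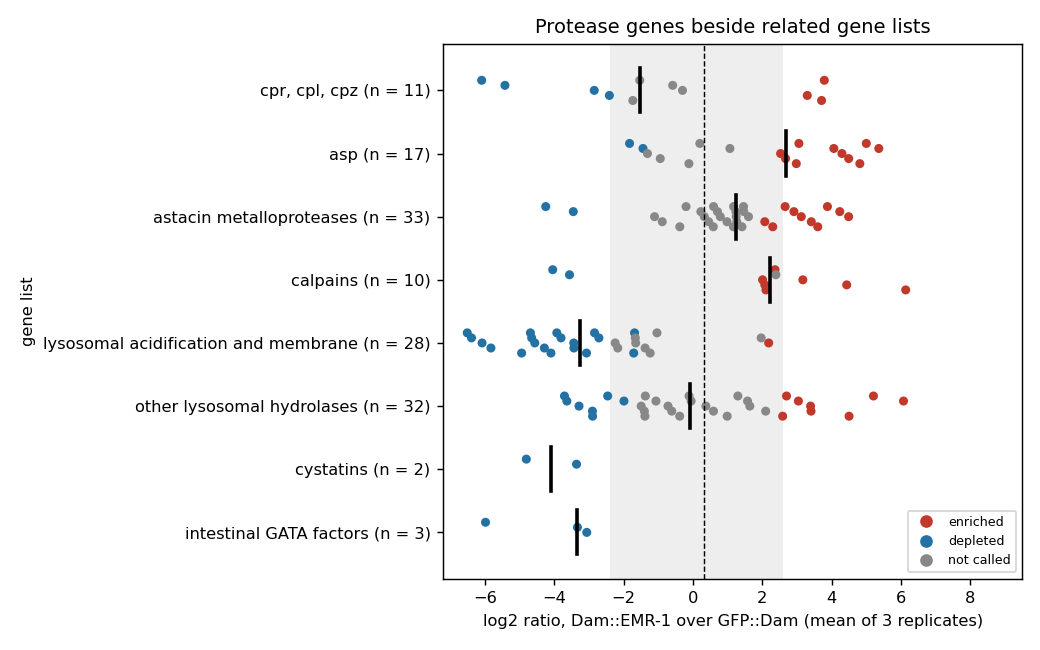
Mean log2 ratio over 3 replicates for each gene of the cysteine (cpr, cpl, cpz) and aspartyl (asp) protease classes and of 6 related lists, coloured by call; vertical bars are list medians, the dashed line the median of all genes, 0.31, and the shaded band the range between their quartiles. The aspartyl proteases have a median of 2.67 and the genes of lysosomal acidification and membranes one of -3.25.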

How the data were processed

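DamID was measured in 3 Dam::EMR-1 and 3 GFP::Dam libraries. Per the file headers, the deposited tables hold log2 ratios for each of 3 replicate numbers and a count of raw reads summed over libraries, at GATC sites and in bins. The submitters' processing notes name ce11 and DESeq2, without a role. Neither the aligner nor the handling of multiply mapping reads is given in these sources.

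The deposited log2 ratios were found, from their values, to compare reads + 1 between same-numbered libraries after subtraction of a constant per column, and Dam::EMR-1 was assumed to be on top. Whole reads per library were recovered within 4e-12 (log2) for 90.2% of GATC sites, which hold 94.8% of reads, and CPM per kb uses these sites, scaled by totals from the 100-kb table. PCR duplicates cannot be told apart, and limits from a count of 0 (3 reads) cover counting error only. The number of unused per-sample columns was 0.

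Genes came from RefSeq (WBcel235, with the chromosome lengths of ce11). Genes with fewer than 60 reads were left out. limma 3.58.1 (R 4.3.3) fitted an intercept to the 3 ratios, with a variance trend on log2 reads and robust estimation, two-sided, over all genes. Fits were tested on simulated data. edgeR 4.0.16 (quasi-likelihood, TMM) on recovered reads summed per gene, other windows, the median over sites, the 2-kb table, total-read scaling, a pseudocount of 5, other flanks and leaving out each replicate were alternatives. The members and lists were chosen with earlier results of these data known, and the test of neighbouring pairs and the count of genes alone in their window were added after seeing the data. Values are given in full for called genes, cpr-1, cpr-6, cpl-1, cpz-1, asp-1, asp-3 and asp-4, for up to 2 genes per direction and list by adjusted p, and by site for the 3 highest and 3 lowest called genes. Further genes called against their surroundings, cpr-3, asp-6 and asp-13, and the sites of asp-9 were named after their values were seen.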

Additional observations from a re-analysis of the deposited data

How the results depend on the processing

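In the 11 limma alternatives, 10 of the 13 enriched and 3 of the 6 depleted genes kept their call, and 5 and 2 also kept it in both edgeR fits on summed reads. Those fits gave the fewest enriched genes: 5 enriched and 3 depleted genes with the replicate number as a block, and 6 and 4 with no block, where 11.5% and 14.5%, and 17.2% and 17.1%, of all genes were called. The ratios pair libraries of the same number by construction. With no replicate block, limma on the 6 libraries called 13 and 6. Same-numbered libraries had deviations correlated at -0.05, -0.06 and -0.03 over 18574 genes, and no library correlated best with its own number. Whether same-numbered samples shared more than a number cannot be told from these correlations or from the labels. The cause of the fewer edgeR calls was not tested. For the gene body alone 3 genes were depleted, and among genes alone in their window, a smaller set, 8 were enriched and 3 depleted. Leaving out 1 replicate gave 11 to 13 enriched and 4 to 5 depleted genes, and 1 to 4 higher and 5 to 6 lower than their surroundings. With a flank of 10 kb, and with the median over sites, 3 genes were higher, and with a flank of 100 kb 8, where asp-5, asp-9, asp-15 and cpr-8 gained a call. Total-read scaling raised the median of all genes from 0.31 to 0.58 and that of the proteases from 0.63 to 0.90.

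Differences from the surroundings changed sign, to values that were not called, at asp-1 (-0.77 to 0.91 without 1 replicate, -0.60 with 10 kb), asp-8 (-0.31 to 0.65 without 1 replicate, -0.82 with 100 kb, -0.32 with 10 kb), asp-9 (-0.54 to 1.00 without 1 replicate, -1.10 with 10 kb), cpr-1 (-0.33 with the median) and cpr-5 (-0.58 with 10 kb). Of these, asp-9 was called higher with 100 kb (2.64, adjusted p = 0.0112) and cpr-5 without replicate 2 (3.17, adjusted p = 0.0144). The cause was not tested. Depth limits genes of few reads most, such as asp-13 with 427 and asp-19 with 491.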
